A study of Mus musculus with 6 samples.

Results

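Erythroid genes and globins were examined in 6 bulk RNA-seq libraries of sorted mouse AE9a leukemia cells. The genes are 9 in number, of 53618 named rows in the table. They were chosen by name and comprise Klf1, the adult globins Hbb-bs, Hbb-bt, Hba-a1 and Hba-a2, the heme enzyme Alas2, the transferrin receptor Tfrc, and the carbonic anhydrases Car1 and Car2. All 9 were detected in every library and passed the expression filter that left 12298 genes to test.

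The cells came from recipients of AE9a leukemia of the genotype Usp18+/f UBCER-Cre, made by transducing fetal liver cells with a retrovirus that carries AE9a, a truncated AML1-ETO fusion, together with GFP. Both groups therefore share the floxed Usp18 allele, the fusion and a tamoxifen-inducible Cre driven by a ubiquitous promoter. When the recipients had become sick, 3 were injected with oil (genotype Usp18+/f) and 3 with tamoxifen in oil (labelled Usp18+/Δ), and GFP+ Lin- c-Kit+ splenocytes were sorted 3 days after the first injection. Each library is 1 mouse, the recipients were irradiated C57BL/6 animals that keep their own unlabelled hematopoiesis, and no group received tamoxifen without the floxed allele, so effects of the drug and of the deletion cannot be told apart. The comparison asks how the transcripts of leukemia cells differ after heterozygous deletion of Usp18.

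Red cell precursors are built around hemoglobin. KLF1 is a zinc finger activator that binds CACCC boxes in the promoters of beta-globin and many other erythroid genes, GATA1 binds GATA motifs, and together they drive globin, heme and membrane genes. ALAS2 catalyses the rate-limiting step of heme synthesis in erythroid cells, the transferrin receptor brings in the iron for it, and carbonic anhydrases convert carbon dioxide and bicarbonate. Synthesis of ALAS2 and the stability of the Tfrc transcript are both tied to iron, through hairpins in their untranslated regions that bind iron regulatory proteins.

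Promoters of 7 of the 9 genes were found in the RefSeq table (GRCm38.p6). Those of Klf1, both beta-globin genes, 1 alpha-globin gene and Alas2 are shown because their motifs are those that KLF1 and GATA1 read. Each is the 120 bases before the RefSeq start, 5′ to 3′ on the gene's strand. Capitals mark the CACCC box, the core letters CCAAT of the promoter element of that name, the core letters TATAA of the box near the start, and the motif GATA with an A or T before it and an A or G after it. Each was searched on either strand, and no matches in the printed windows overlapped.
Klf1: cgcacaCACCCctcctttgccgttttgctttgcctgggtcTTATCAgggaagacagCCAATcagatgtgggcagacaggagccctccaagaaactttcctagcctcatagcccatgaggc
Hbb-bs: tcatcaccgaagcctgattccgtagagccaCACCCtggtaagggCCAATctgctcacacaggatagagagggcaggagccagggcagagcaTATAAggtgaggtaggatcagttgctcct
Hbb-bt: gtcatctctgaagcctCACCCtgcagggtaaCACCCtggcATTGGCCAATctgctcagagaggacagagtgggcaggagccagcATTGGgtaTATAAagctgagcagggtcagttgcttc
Hba-a1: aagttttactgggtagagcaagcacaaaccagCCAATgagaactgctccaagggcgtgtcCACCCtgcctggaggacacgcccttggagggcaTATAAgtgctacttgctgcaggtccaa
Alas2: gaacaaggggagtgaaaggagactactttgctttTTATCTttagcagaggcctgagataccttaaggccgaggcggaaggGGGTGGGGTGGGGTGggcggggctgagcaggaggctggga

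The windows lie at chr8:84901862-84901981 (Klf1, plus strand), chr7:103827929-103828048 (Hbb-bs, minus strand), chr7:103813924-103814043 (Hbb-bt, minus strand), chr11:32283552-32283671 (Hba-a1, plus strand) and chrX:150547297-150547416 (Alas2, plus strand). All 4 globin promoters, Hba-a2 included, held at least 1 match of CACCC, of the CCAAT letters and of the TATAA letters, and no GATA match. The TATAA stood 23 to 30 bases before the start in each of them. Of the beta-globin pair, Hbb-bt held 2 CACCC matches and Hbb-bs 1. The Klf1 window held 1 match each of CACCC, of the CCAAT letters and of the GATA motif, but none of TATAA. Alas2 held 3 CACCC matches in tandem, all on the other strand, and 1 GATA match. The 2 Tfrc windows held a single CACCC between them, 2 bases from one start. Over 32851 promoter windows of the same length, 31.7% held CACCC, 21.3% held the CCAAT letters, 12.8% held the GATA motif and 11.9% held the TATAA letters. A match of these letters is a description and was not tested as a binding site.

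The iron hairpins are shown because Tfrc and Alas2 carry them at opposite ends of their transcripts. Each line is 28 bases of the GENCODE vM21 transcript, 5′ to 3′, with the CAGTG loop and the base after it in capitals.
Alas2, 5′ untranslated region: tggttcgtcctCAGTGCagggcaacagg
Tfrc, 3′ untranslated region, match 1: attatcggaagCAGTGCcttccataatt
Tfrc, 3′ untranslated region, match 2: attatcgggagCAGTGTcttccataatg
Tfrc, 3′ untranslated region, match 3: tatatcggagaCAGTGAtctccatatgt
Tfrc, 3′ untranslated region, match 4: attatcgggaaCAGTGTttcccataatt

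The Tfrc matches lie at chr16:32631220-32631247, chr16:32631599-32631626, chr16:32631664-32631691 and chr16:32631711-32631738 on the plus strand. The Alas2 match begins at chrX:150547459 and ends at chrX:150552149, since the 28 bases are joined across an intron. The RNA-seq values count transcripts, so they do not read the synthesis of ALAS2. A change in the stability of the Tfrc transcript would enter its count, but the count does not separate stability from transcription. Neither was tested.

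Before any result, 1 library stood apart. The library labelled tamoxifen 1 had a median correlation with the others of 0.913 across genes, against 0.981 to 0.990 for the remaining 5, and 0.00923% of its reads were mitochondrial, against 1.01% to 1.56%. It lay above all 5 others in 41.1% of tested genes and below all of them in 41.6%. Recovered reads per library ran from 19172471 to 23785143. Differences below are therefore given with and without it. Usp18 itself had normalised counts of 217, 214 and 176 in the oil libraries and 477, 329 and 284 in the libraries labelled tamoxifen. All tamoxifen values were higher, which goes against a loss of transcript (log2 difference 0.81 ± 0.25 SE, limma adjusted p = 0.666, and 0.60 without tamoxifen 1, adjusted p = 0.181). A count per gene includes the undeleted allele and does not separate the floxed exons, so it does not check the deletion.

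The cell type on the labels was compared with marker genes. Kit, the sorting antigen, had normalised counts of 8990, 8043 and 7512 under oil and 4687, 7749 and 10976 under tamoxifen. The other genes of the myeloid progenitor list were mixed. Low values were those of the granule and granulocyte genes, with Mpo at most 20.2, Elane at most 11.1, Cebpa at most 6.06 and Csf3r at most 1.01 in any library, Prtn3 between 6.50 and 31.4, and Ms4a3 between 17.9 and 44.9. Ctsg, another granule protease, lay between 51.1 and 188, Cd34, a progenitor antigen, between 200.7 and 1052, and Spi1, a myeloid transcription factor, between 1523 and 3428. Ptprc, which encodes CD45, was between 0.898 and 8.08. Erythroid regulators were abundant, with Gata1 between 6453 and 10017, Tal1 between 8106 and 11885, and Epor, the erythropoietin receptor, between 1241 and 2772. Mast cell and basophil genes spread over a wide range. Hdc, histidine decarboxylase, lay between 21497 and 32583, and Cma1, a mast cell chymase, between 10154 and 24719. Ms4a2, Cpa3 and Fcer1a were at least 936 in every library, whereas Mcpt4, Tpsab1, Tpsb2, Mcpt8 and Prss34 were at most 622. Since the lists are mixed, the cells are named here by the sort.

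**Figure D1:**
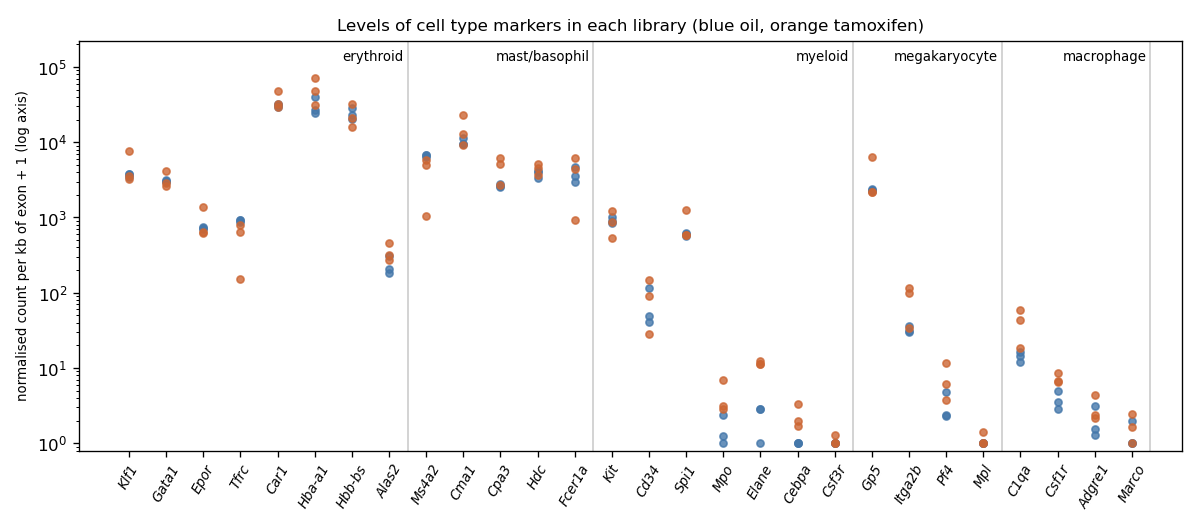
Normalised count per kb of exon, plus 1 and on a log axis, of marker genes of 5 cell types, 1 point per library. Most of the plotted erythroid and mast cell genes are high, Alas2, Spi1 and Kit are intermediate, and Mpo, Elane, Cebpa and Csf3r lie near the bottom of the axis.

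Per kb of exon, the 9 genes differed widely in level in the oil libraries. Car1 (30815 ± 1331 normalised counts per kb, SD, n = 3) and Hba-a1 (30606 ± 8488) ranked 16 and 17 of the tested genes with a known length, and these neighbours did not differ beyond their spread. Hbb-bs followed at 23975 ± 4327, whose spread overlapped that of Hba-a1, and then Car2 at 7597 ± 761. Klf1 (3658 ± 198) and Hbb-bt (3502 ± 396) again did not differ beyond their spread. Tfrc stood at 908 ± 33.4, Hba-a2 at 505 ± 126 and Alas2 at 231 ± 67.2, the last at rank 4656. The tamoxifen means were 36580 ± 10042 for Car1, 50024 ± 19703 for Hba-a1, 23130 ± 8553 for Hbb-bs and 6511 ± 1016 for Car2. Those of the lower genes were 4835 ± 2518 for Klf1, 4222 ± 1437 for Hbb-bt, 680 ± 290 for Hba-a2, 531 ± 334 for Tfrc and 348 ± 97.4 for Alas2. Hbb-bs ranked 29, Hbb-bt 242 and Hba-a2 2379. The 4 globin genes together took 0.174% to 0.326% of the reads in a library. All 9 genes took 0.498% to 0.657%.

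No member passed limma's test between tamoxifen and oil at an adjusted p under 0.05 with all 6 libraries, and none had an unadjusted p under 0.05. Over all tested genes the same test called 0% (0 of 12298), and 4.47% had an unadjusted p under 0.05. On the recovered reads, edgeR and DESeq2 also called no member, while DESeq2 called 0.464% of the genes it gave an adjusted p. Without tamoxifen 1, limma called no member and 0.333% of all genes. The groups did not overlap in 1 of 9 members, Tfrc, which was lower under tamoxifen, where 9.69% of all genes were lower and 7.86% higher without overlap. Without tamoxifen 1 the share of genes without overlap was 16.8% lower and 12.6% higher, and Tfrc was again the only member. In bulk RNA, fewer cells of a type and less RNA per cell cannot be told apart.

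**Figure D2:**
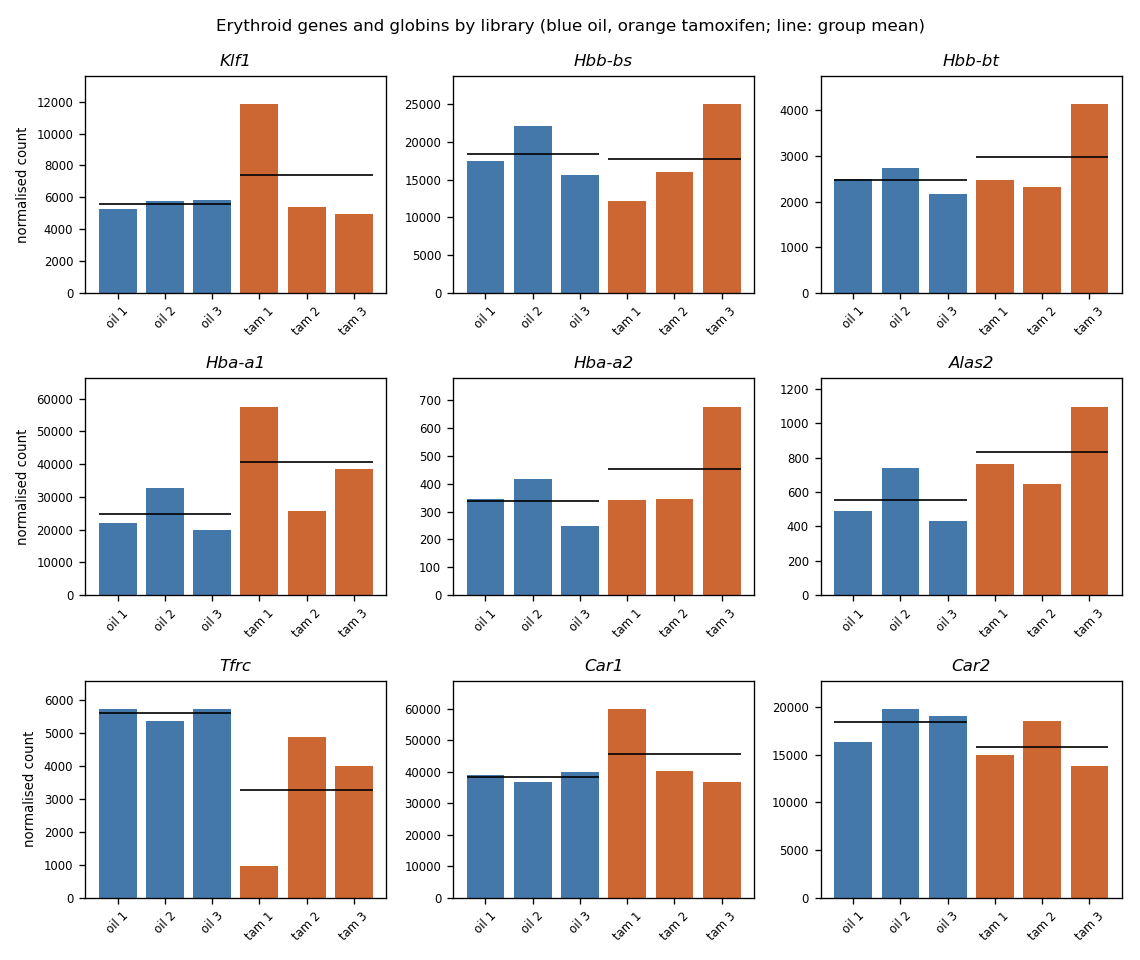
Normalised counts of the 9 genes in each library, as bars from 0, with a line at each group mean. Tfrc is the only gene whose tamoxifen bars all lie below its oil bars, and tamoxifen 1 is the tallest bar for Klf1, Hba-a1 and Car1.

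Klf1 was nearly level across the oil libraries and high in a single tamoxifen library. Its normalised counts were 5248, 5749 and 5794 under oil and 11837, 5413 and 4942 under tamoxifen. The groups overlapped, and tamoxifen 1 was 2.19 times the median of the other 5 libraries. The log2 difference, tamoxifen minus oil, was 0.29 ± 0.34 (SE, 95% interval -0.52 to 1.09, adjusted p = 0.690). Without tamoxifen 1 its direction turned, to -0.11 with an interval of -0.30 to 0.07. Klf1 spans chr8:84901928-84905291 on the plus strand, and its exons have a GC content of 61.0%, the highest of the 9 genes. After a loess correction for GC content, its value in tamoxifen 1 was 6030, within the corrected oil values of 5501 to 6070, and the difference was -0.092.

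The genes whose pattern lay nearest to Klf1 over the 6 libraries were Acd, a component of the telomere shelterin complex, Rpp21, a subunit of ribonuclease P, and Pfkm, the muscle type of phosphofructokinase. Their root mean square differences from Klf1, on centred log2 values, were 0.017, 0.018 and 0.030 among 12289 genes compared. Each of them was high in tamoxifen 1, for instance Acd with 2399 against 1009 to 1173 in the other libraries. With 6 libraries and 1 that stands apart, this likeness is mostly a likeness in tamoxifen 1.

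Hbb-bs is the more abundant of the 2 adult beta-globin genes here. Its normalised counts were 17441, 22113 and 15684 under oil and 12209, 16068 and 25015 under tamoxifen, so the tamoxifen libraries held both the lowest and the highest value. The log2 difference was -0.10 ± 0.29 (interval -0.79 to 0.59, adjusted p = 0.862), and 0.14 without tamoxifen 1 (interval -0.29 to 0.56). The gene lies at chr7:103826534-103828096 on the minus strand. Nearest to it in pattern were C030034L19Rik, Ankrd12 and Rcbtb1, with root mean square differences of 0.091, 0.097 and 0.11 on the same scale, farther than the neighbours of Klf1.

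Hbb-bt, the neighbouring beta-globin gene at chr7:103812524-103813996, had 2486, 2727 and 2173 normalised counts under oil and 2463, 2310 and 4131 under tamoxifen. Only tamoxifen 3 lay outside the oil range. The log2 difference was 0.22 ± 0.25 (interval -0.38 to 0.82, adjusted p = 0.684) and 0.33 without tamoxifen 1. Without tamoxifen 3 it was -0.040, so that library decides its direction. Hbb-bt took 11.0% to 16.8% of the reads of the 2 beta-globin genes.

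Hba-a1, an alpha-globin gene at chr11:32283511-32284465, differed between mice within both groups. Its normalised counts were 21883, 32731 and 19942 under oil and 57514, 25700 and 38645 under tamoxifen. Tamoxifen 1 and 3 lay above every oil library and tamoxifen 2 lay within their range. The log2 difference was 0.67 ± 0.34 (interval -0.14 to 1.47, adjusted p = 0.666), then 0.38 without tamoxifen 1 and 0.40 after GC correction, which brought tamoxifen 1 from 57514 to 36522. Hba-a2, its copy at chr11:32296489-32297298, had 346, 416 and 248 normalised counts under oil and 340, 344 and 677 under tamoxifen. Here tamoxifen 1 was within the oil range and only tamoxifen 3 above it. Its log2 difference was 0.38 ± 0.34 (interval -0.44 to 1.20, adjusted p = 0.666). It was 0.55 without tamoxifen 1, 0.18 without oil 3, 0.13 after GC correction and 0.054 without tamoxifen 3.

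The split of reads between the copies is uncertain. The coding sequences of Hba-a1 and Hba-a2 are identical at 428 of 429 bases, with a shared stretch of 415 bases, and 73.1% of the 150-base windows in Hba-a2 transcripts also occur in Hba-a1. Those of Hbb-bs and Hbb-bt are identical at 443 of 444 bases, and 50.7% of the windows of Hbb-bt also occur in Hbb-bs. Hba-a2 took 0.588% to 1.72% of the reads of the alpha pair. Whether that low share is transcription or the placing of reads was not tested. Sums over each pair do not depend on how shared reads were divided, but would lose them if reads that match both copies were discarded, and how the authors treated such reads is not given in the sources used here.

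Summed over each pair, alpha-globin exceeded beta-globin in every library. The ratio of alpha to beta normalised counts was 1.12, 1.33 and 1.13 under oil and 3.94, 1.42 and 1.35 under tamoxifen. The tamoxifen libraries all lay above the oil libraries, and for tamoxifen 2 and 3 the margin over oil 2 was small. After GC correction the ratios were 1.14, 1.37 and 1.14 against 2.75, 1.45 and 1.36, and tamoxifen 3 then fell within the oil range. An exact two-sided permutation test gave p = 0.10 for the uncorrected ratio, which is the smallest that 3 libraries against 3 can give, and p = 0.2 for the corrected one. The embryonic genes were nearly silent, with Hba-x listed at 0 in every library and Hbb-y at most 6.29. Hbb-bh1 lay between 11.6 and 21.7, and Hbb-bh2 at 20.7, 20.3 and 28.8 under oil against 3.83, 15.2 and 19.1 under tamoxifen (log2 difference -1.04, adjusted p = 0.666, and -0.41 without tamoxifen 1).

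**Figure D3:**
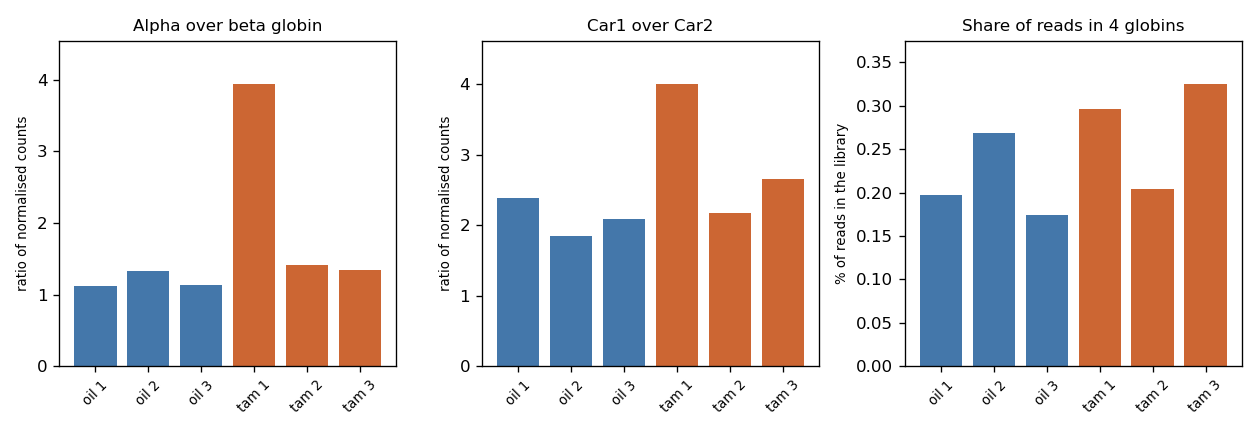
Ratio of alpha to beta globin counts, ratio of Car1 to Car2 counts, and share of reads in the 4 adult globin genes, as bars from 0 for each library. Tamoxifen 1 is the tallest bar in both ratios (3.94 and 4.01), whereas the share of globin reads is highest in tamoxifen 3 (0.326%).

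Alas2 followed the globins more than the other members did. Its normalised counts were 490, 738 and 435 under oil and 764, 647 and 1098 under tamoxifen. Tamoxifen 1 and 3 exceeded every oil library, and tamoxifen 2 lay between oil 1 and oil 2. The log2 difference was 0.59 ± 0.29 (interval -0.09 to 1.28, adjusted p = 0.666) and 0.64 without tamoxifen 1, where the unadjusted p was 0.0294 and the adjusted p 0.350. The 95% interval without that library ran from 0.08 to 1.20. Alas2 is at chrX:150547375-150570638, and 372 bases of its exons overlap genes on the opposite strand, among them Apex2. The strand setting of the counting is not given in the sources used here, so reads of the overlap cannot be assigned.

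The 4 globins and Alas2 shared an order among 5 of the mice, tamoxifen 1 left out. In each of these 5 genes oil 2 was the highest oil library and oil 3 the lowest, and tamoxifen 3 exceeded tamoxifen 2. Of all tested genes, 8.49% had this order. In tamoxifen 1 the genes did not go together, since Hba-a1 was at its highest of the 6 libraries, Hbb-bs at its lowest, and Hbb-bt and Hba-a2 within the oil range. After GC correction Hba-a1 in tamoxifen 1 (36522) lay below tamoxifen 3 (38880). Hba-a2 in tamoxifen 1 (219) then lay below every oil library, the lowest being oil 3 (257). Hbb-bs was still lowest in tamoxifen 1, and Hbb-bt still lay within the oil range. The highest oil value was 1.26 to 1.70 times the lowest for these genes, against 1.07 for Tfrc, 1.09 for Car1, 1.10 for Klf1 and 1.21 for Car2. Tamoxifen 3 was 1.36 times the oil mean for Hbb-bs, 1.56 for Hba-a1, 1.68 for Hbb-bt, 1.98 for Alas2 and 2.01 for Hba-a2, while tamoxifen 2 was 0.87 to 1.17 times it. For Klf1, Tfrc and Car2, tamoxifen 3 was 0.88, 0.72 and 0.75 times the oil mean. Klf1 did not have this order. The order was noticed in these values and was not tested.

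Tfrc was lower in all tamoxifen libraries. Its normalised counts were 5738, 5377 and 5730 under oil and 947, 4884 and 4019 under tamoxifen, so the groups did not overlap. Tamoxifen 1 was 0.18 times the median of the other 5 libraries, and the exons of Tfrc have the lowest GC content of the 9 genes (39.4%). The log2 difference was -1.08 ± 0.59 (interval -2.50 to 0.34, adjusted p = 0.666). Without tamoxifen 1 it was -0.34 ± 0.09 (interval -0.55 to -0.13), with an unadjusted p of 0.00495 and an adjusted p of 0.189, which misses the threshold. After GC correction the tamoxifen values were 3569, 4645 and 3925 against 5593, 5161 and 5677 under oil, with the groups still apart and a difference of -0.44. A limma fit with library weights called Tfrc at -0.43 (adjusted p = 0.0437), in which 782 genes were called in all. Tfrc lies at chr16:32608920-32632794 on the plus strand.

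The iron genes around it did not share 1 direction. Of 15 tested genes for iron uptake and storage, none was called and 1 had an unadjusted limma p under 0.05, beside 4.47% of all genes. In 2 the tamoxifen libraries were all higher and in 3, Tfrc included, all lower, where 7.86% and 9.69% of all genes were, with a median log2 difference of -0.10 (-0.07 without tamoxifen 1) beside -0.02 over all tested genes. Slc39a14, a transporter of zinc and iron, had 21.6, 19.3 and 29.7 normalised counts under oil and 70.3, 39.4 and 49.1 under tamoxifen (log2 difference 1.12 ± 0.34, adjusted p = 0.666, and 0.90 without tamoxifen 1). Slc11a2, which moves iron out of the endosome after the transferrin receptor has brought it in, had 4194, 4309 and 4608 against 3071, 4030 and 3597 (-0.30 ± 0.15, adjusted p = 0.666). Its direction was that of Tfrc, and it was -0.20 without tamoxifen 1. Fth1, the heavy chain of ferritin and the most abundant gene of the list, lay between 38634 and 40206 under oil and between 33406 and 44249 under tamoxifen (-0.03, adjusted p = 0.927, and -0.13 without tamoxifen 1).

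Car1 and Car2 differed from each other more than between the groups. Car1, the first of the pair at chr3:14766216-14808368, had 38856, 36633 and 39883 normalised counts under oil and 59980, 40246 and 36729 under tamoxifen. The groups overlapped, with tamoxifen 1 at 1.54 times the median of the others. The log2 difference was 0.21 ± 0.22 (interval -0.30 to 0.73, adjusted p = 0.668), and without tamoxifen 1 it was 0.0005, with an interval of -0.21 to 0.21. GC correction did not bring tamoxifen 1 toward the others for this gene, whose GC content is 45.1%, and its corrected value was 99714. Car2, at chr3:14886273-14900770 on the other strand, had 16309, 19792 and 19097 under oil and 14949, 18535 and 13825 under tamoxifen, of which tamoxifen 1 and 3 lay below every oil library. Its log2 difference was -0.23 ± 0.17 (interval -0.64 to 0.18, adjusted p = 0.666) and -0.20 without tamoxifen 1. The ratio of Car1 to Car2 counts was 2.38, 1.85 and 2.09 under oil and 4.01, 2.17 and 2.66 under tamoxifen, and the groups overlapped. After GC correction this ratio was 2.33, 1.78 and 2.03 under oil and 6.42, 2.12 and 2.69 under tamoxifen. The corrected groups also overlapped, with tamoxifen 1 farther from the other libraries. The coding sequences of Car1 and Car2 are 64.0% identical and share no 150-base window, so their reads are separable.

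Among 9 tested carbonic anhydrases none was called and 2 were lower in all tamoxifen libraries (9.69% of all genes). Car13, a cytosolic form, had 1058, 1206 and 1151 normalised counts under oil and 311, 881 and 621 under tamoxifen (log2 difference -1.04 ± 0.37, unadjusted p = 0.0286, adjusted p = 0.666). Without tamoxifen 1 it was -0.62 with an adjusted p of 0.141 in limma, and DESeq2 without that library called it at -0.59 (adjusted p = 0.00707). Car15 had 26.9, 25.1 and 20.4 against 7.67, 13.1 and 19.1 (-0.89, adjusted p = 0.666, and -0.57 without tamoxifen 1). The median log2 difference of the list was -0.18, and -0.13 without tamoxifen 1.

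**Figure D4:**
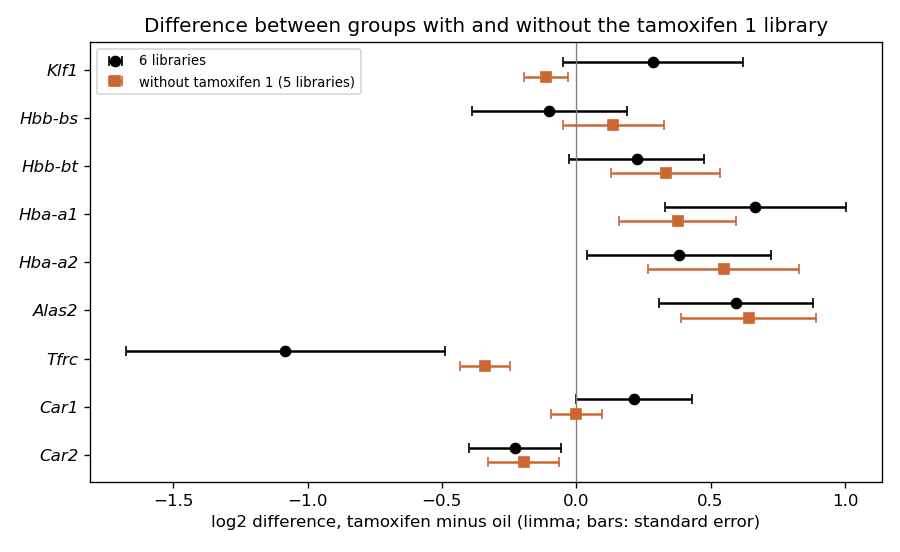
Log2 difference between tamoxifen and oil with its standard error for the 9 genes, from limma with 6 libraries (circles) and without tamoxifen 1 (squares). Tfrc moves from -1.08 to -0.34 and Klf1 and Hbb-bs cross 0 when that library is left out.

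The wider erythroid program was described by 8 lists of 123 genes in all, of which 121 were in the table and 108 were tested. limma called none of the 108, beside 0% of all genes. An unadjusted limma p under 0.05 was reached by 6 that were higher and 2 that were lower, beside 397 and 153 of all 12298 genes. The groups did not overlap in 9 that were higher and 13 that were lower, where 7.86% and 9.69% of all genes were. The median log2 difference was 0.05 beside -0.02 over all tested genes, and without tamoxifen 1 it was -0.06 beside -0.02. Without tamoxifen 1, 9 were higher and 27 lower in both remaining tamoxifen libraries, where 12.6% and 16.8% of all genes were. limma called none of the 108 without that library either, beside 0.333% of all genes.

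Of 20 erythroid transcription factors none was called, and 2 were lower in all tamoxifen libraries (9.69% of all genes), with a median log2 difference of 0.19 that was -0.03 without tamoxifen 1. Tamoxifen 1 was above all other libraries in 15 of the 20 and below in the other 5. Over all tested genes these shares were 41.1% and 41.6%. Sox6, which represses embryonic globin genes, had 2187, 2442 and 2042 normalised counts under oil and 1240, 1842 and 1751 under tamoxifen. Its log2 difference was -0.48 ± 0.20 (unadjusted p = 0.0448, adjusted p = 0.666), and -0.30 without tamoxifen 1. Zfpm1, the GATA1 cofactor FOG1, had 2172, 1638 and 1560 against 7170, 1974 and 2515, and tamoxifen 2 lay within the oil range (0.89, adjusted p = 0.666, and 0.33 without tamoxifen 1). Gata2, which GATA1 replaces at many sites as red cells mature, was the most abundant at 10484, 10840 and 8872 under oil and 13302, 10154 and 9492 under tamoxifen (0.12, adjusted p = 0.754, and -0.03 without tamoxifen 1).

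Of 17 genes of heme synthesis none was called and none had groups that did not overlap. Without tamoxifen 1, 5 were lower and none higher in both tamoxifen libraries (16.8% and 12.6% of all genes), and the median log2 difference was -0.08 beside -0.02 over all genes. Alas1, the form of the enzyme found in all tissues, had 278, 214 and 249 normalised counts under oil and 566, 269 and 281 under tamoxifen (0.51, adjusted p = 0.666, and 0.16 without tamoxifen 1). Cpox, coproporphyrinogen oxidase, was the most abundant, with 10072, 11292 and 11798 against 16124, 11308 and 9584 (0.13, adjusted p = 0.772, and -0.08 without tamoxifen 1).

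Of 19 genes of the red cell membrane none was called, 3 were higher in all tamoxifen libraries (Add2, Tmod1 and Aqp1) and 3 lower (among them Kel and Stom), where 7.86% and 9.69% of all genes were. The median log2 difference was 0.03, and -0.03 without tamoxifen 1. Add2, beta-adducin, had 66.5, 38.6 and 68.7 against 312, 83.9 and 138 (1.44, adjusted p = 0.666, and 0.93 without tamoxifen 1). Tmod1, a cap of actin filaments, had 16.2, 28.9 and 29.7 against 84.4, 32.3 and 54.6 (1.11, unadjusted p = 0.0434, adjusted p = 0.666, and 0.78 without tamoxifen 1). Sptb, beta-spectrin, was abundant and overlapped, at 8999, 11129 and 10173 against 25133, 9976 and 9740 (0.42, adjusted p = 0.666, and -0.03 without tamoxifen 1).

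Of 8 tested genes of erythropoietin receptor signalling none was called and 1 was higher in all tamoxifen libraries (7.86% of all genes). This was Cish, a STAT5 target that restrains cytokine receptors, with 415, 466 and 440 normalised counts under oil and 1002, 558 and 653 under tamoxifen (log2 difference 0.70 ± 0.24, unadjusted p = 0.0261, adjusted p = 0.666, and 0.46 without tamoxifen 1, adjusted p = 0.181). Pim1, another STAT5 target, had 2670, 2401 and 3172 against 4637, 3171 and 3518, in which tamoxifen 2 lay just below oil 3 (0.45, adjusted p = 0.666, and 0.29 without tamoxifen 1). Stat5a itself had 5718, 5350 and 5250 against 10534, 5038 and 5159 (0.26, adjusted p = 0.688, and -0.09 without tamoxifen 1). The median of the list was 0.16, and -0.01 without tamoxifen 1.

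Of 15 late erythroid genes limma called none, 3 were higher and 2 lower in all tamoxifen libraries (7.86% and 9.69% of all genes), and the median log2 difference was 0.06 (-0.08 without tamoxifen 1). Trim58, a ubiquitin ligase of late erythroblasts, had 112, 110 and 81.7 normalised counts under oil and 610, 131 and 421 under tamoxifen (log2 difference 1.68 ± 0.56, unadjusted p = 0.0210, adjusted p = 0.666, and 1.22 without tamoxifen 1). DESeq2 called it at 1.93 (adjusted p = 0.0406), the only called gene of the 8 lists in that fit. Without tamoxifen 1 DESeq2 did not call it (1.47, adjusted p = 0.342). Its highest values were in tamoxifen 1 and 3, as for Hba-a1 and Alas2. Bnip3l, which clears mitochondria from reticulocytes, had 8019, 8049 and 7250 against 5147, 6674 and 6609 (-0.35, adjusted p = 0.666, and -0.23 without tamoxifen 1). Gpx1, glutathione peroxidase, had 40805, 39445 and 42060 against 33931, 38875 and 33256 (-0.21, adjusted p = 0.666, and -0.18 without tamoxifen 1).

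**Figure D5:**
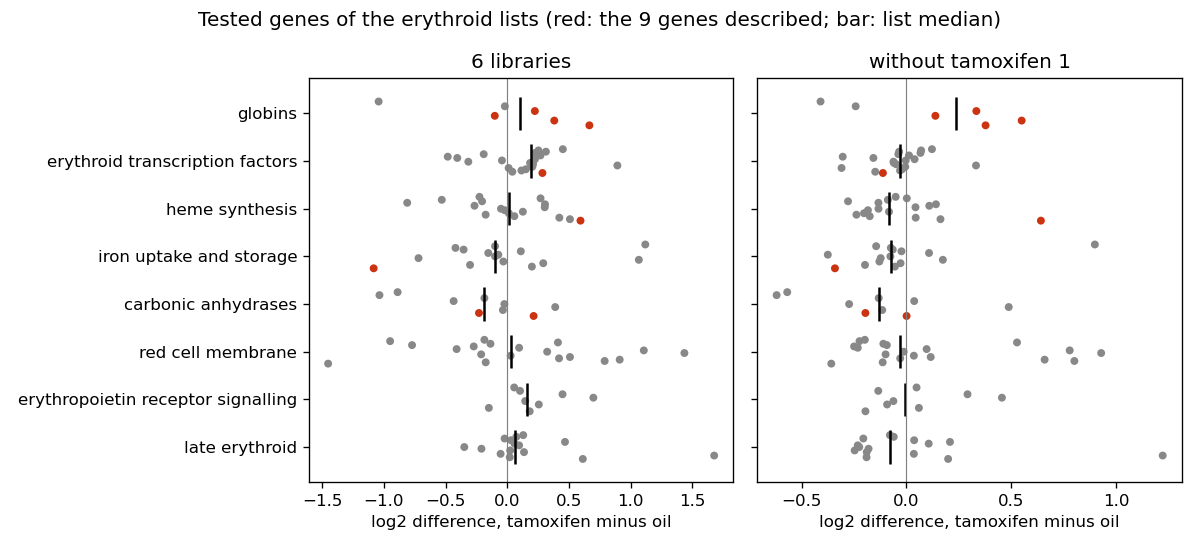
Log2 difference between tamoxifen and oil for each tested gene of the 8 erythroid lists, with all 6 libraries and without tamoxifen 1, and a bar at each list's median. The genes lie on both sides of 0 in every list, and the 4 adult globins and Alas2 all lie above 0 once tamoxifen 1 is left out.

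Markers of other cells that could remain in a spleen sort were read beside these genes. The gate for GFP+ Lin- c-Kit+ cells is set to remove host cells, which are unlabelled. The paper's lineage cocktail for bone marrow includes the erythroid antigen Ter119, and for the spleen sort a lineage cocktail is named without its contents. If that cocktail held Ter119, the sort would also leave out leukemia cells that carry this antigen. The erythroid levels here are therefore those of a selected population. Macrophage markers, which include those of the macrophages that take up red cells, summed to 425 to 569 normalised counts under oil and 681 to 855 under tamoxifen. All 10 tested had a higher tamoxifen mean, beside 5958 of all 12298 genes (median log2 difference 1.27, and 1.26 without tamoxifen 1). In 5 of them the groups did not overlap, where 7.86% of all genes were higher. Several were low, among them C1qa between 11.6 and 60.1 and Mrc1 between 8.36 and 38.4. Adgre1 was at most 11.1 and Marco at most 2.73. Hmox1, the heme-degrading enzyme in that list, had 64.7, 35.7 and 31.6 under oil and 115, 110 and 149 under tamoxifen (log2 difference 1.54, limma adjusted p = 0.666, and 1.59 without tamoxifen 1), and it was the macrophage gene that DESeq2 called. Csf1r, the receptor for macrophage colony-stimulating factor, had 22.5, 10.6 and 14.9 against 33.2, 44.5 and 31.8, while Slc40a1, the iron exporter, had 249, 360 and 272 against 235, 348 and 337. Mast cell and basophil markers summed to 59300 to 65517 under oil and 50991 to 84437 under tamoxifen, with Tpsb2, a mast cell tryptase, at 7.19, 16.4 and 13.0 against 46.0, 153 and 148 (log2 difference 3.03, adjusted p = 0.580, and 3.59 without tamoxifen 1, adjusted p = 0.00277). With all 6 libraries DESeq2 called Tpsb2 (3.25, adjusted p = 2.4e-05), the only gene of this list called in that fit. Mcpt8, a basophil protease, had 27.8, 26.0 and 40.9 against 60.1, 78.8 and 96.4. Cpa3, a mast cell carboxypeptidase, had 3823, 3992 and 4174 against 4074, 7774 and 9431 (0.74, adjusted p = 0.666, and 1.10 without tamoxifen 1, adjusted p = 0.00183). Ms4a2, a chain of the IgE receptor, was instead lower in all tamoxifen libraries, with 17754, 19301 and 19161 against 2965, 16499 and 14036 (-1.09, adjusted p = 0.666, and -0.30 without tamoxifen 1). For Fcer1a and Mcpt4 the groups overlapped, and the log2 differences of -0.32 and -0.39 with 6 libraries turned to 0.51 for each without tamoxifen 1. Megakaryocyte markers summed to 6332 to 6539 against 6099 to 15091, and Gp5, a platelet glycoprotein, made up most of this, with 5141, 5235 and 4913 against 13774, 4733 and 4738 (0.41, adjusted p = 0.669, and -0.11 without tamoxifen 1). Itga2b, an integrin of platelets and their precursors, had 191, 164 and 158 against 616, 182 and 531, and tamoxifen 2 lay within the oil range (1.19, unadjusted p = 0.0391, adjusted p = 0.666, and 0.86 without tamoxifen 1). Vwf, von Willebrand factor, had 218, 221 and 234.0 against 328, 234.4 and 296, higher in all tamoxifen libraries but by little in tamoxifen 2 (0.34, adjusted p = 0.666, and 0.23 without tamoxifen 1). Of the antigens of a lineage cocktail, T cell, B cell and granulocyte genes were at 0 or at most 3.03. The part of these cells in the erythroid values was not tested.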

How the data were processed

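Reads were aligned by the authors to mm10 with STAR and normalised with DESeq2, per the labels and the study's methods; their versions, the annotation, strand setting and filters are not given in the sources used here. The deposited values, called counts, are a normalised signal: the read total of each gene over a size factor of its library. Dividing by the value of 1 read gave whole reads for 100% of the values checked (tolerance 0.1), also in tamoxifen 2, where this step is 1.01. Of 55450 rows, 1832 had no gene name (0.0400% to 0.0614% of reads) and were left out.

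limma (3.58.1, R 4.3.3, mean-variance trend) was fitted to log2(value + 1) of 12298 genes (the filter asks for at least 10 in 3 libraries or more), with Benjamini-Hochberg adjustment over all of them, two-sided, at 0.05. Differences are on this scale and understate those of low genes. An edgeR test had been planned in place of limma only if the values were raw counts. DESeq2 (1.42.0) and edgeR (4.0.16) were run on recovered reads. Data were simulated with 200 of 12298 genes changed by 2 on the log2 scale, at a dispersion of 0.05. On these, limma recovered 98.5% and called 11 unchanged genes. No simulated library stood apart as tamoxifen 1 does, so this share is not the power of the real comparison. GC content was corrected by a loess curve (span 0.3) per library.

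The members and lists were chosen with earlier results of these data known. Named were all members, from each list the 2 genes with the smallest unadjusted p and the most abundant one, the 3 nearest in pattern to Klf1 and Hbb-bs, and Usp18; other genes named, in the marker paragraphs and as lists of genes without overlap, were chosen after their values were seen. Coordinates and exon lengths are from GENCODE vM21 (GRCm38), promoters from RefSeq. The result of 1 listed gene is not reported here. Replicates are separate mice; counts carry no molecular identifiers.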

Additional observations from a re-analysis of the deposited data

How the results depend on the processing

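No member was called under TMM scaling, pseudocounts of 0.5 and 5, no expression filter, a minimum of 1 CPM in 3 libraries, GC correction, or any library left out in turn. The fit with library weights called 1 member, Tfrc (-0.43), 10 genes of the erythroid lists and 782 of all tested genes. DESeq2 called 1 listed gene (Trim58) and 71 of all genes. In fits chosen after seeing the data, without tamoxifen 1, DESeq2 called 2 listed genes (Car13 among them) and 231 of all genes, and edgeR 46 of all genes. In limma, leaving out each library in turn called 0 to 41 genes in all, the 41 being those without tamoxifen 1, which shows that this library lowers the number of calls.

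The direction of 4 members turned. Klf1 was -0.092 after GC correction, with and without the replicate block, -0.15 with library weights, -0.10 in DESeq2 and -0.090 in edgeR without tamoxifen 1, and -0.11 to 0.52 over the libraries left out. Hbb-bs was 0.25 with library weights, 0.17 in DESeq2 and 0.18 in edgeR without tamoxifen 1, and -0.38 to 0.14 over the libraries left out, where omitting oil 2 also turned it. Hbb-bt was -0.040 to 0.38, and Car1 was -0.015 with library weights. The cause was not tested.

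The labels do not say that the replicate numbers pair the mice. Mice that share a number deviated from their group means with correlations of -0.024, 0.061 and -0.15. Since tamoxifen 1 enters the tamoxifen mean, these correlations cannot decide whether the numbers are pairs. With the replicate number as a block, 0 members were called and 0 genes in all. With 3 libraries a group, and 1 that stands apart, the 95% intervals of all 9 differences span 0, so a missed threshold does not show that the groups are alike.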
